A study of Mus musculus with 45 samples.

Results

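The RNA of 7 single control two-cell embryos was compared embryo by embryo, to find which genes were even and which were uneven among embryos of 1 group. The embryos were control replicates 1, 2, 3, 5, 6, 7 and 8, and they are 7 of the 45 samples of the series. Replicate 4, which had a technical problem, was left out. For every gene the spread over the 7 embryos was taken, and the 9988 of 26214 genes with a mean of at least 10 TPM were kept. TPM is a read count scaled to the length of the gene and to a common sum in each library.

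The control embryos came from oocytes of H3f3b K36M-flox/+ females without Cre on a mixed C57BL/6 / 129 background. H3f3b encodes the histone variant H3.3, and its K36M-flox allele stays unrecombined without Cre. The females were superovulated, the oocytes were fertilized in vitro with JF-1 sperm, and late two-cell embryos were harvested 31 to 32 h after fertilization. Each embryo gave 1 library, made with a SMART-Seq stranded kit. The labels do not give the mother, the sex or the inherited H3f3b allele of any embryo, so the spread holds all of these together with the error of making a library from 1 embryo. The series also holds fully grown oocytes (FGOs) and 8 two-cell embryos derived from oocytes that expressed H3.3 K36M through Gdf9-Cre, which is active in oocytes. Those samples were used here only to class genes and as a second set of embryos.

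A mouse embryo starts with RNA that the oocyte made and stored. This maternal RNA is degraded around the two-cell stage, while the embryonic genome begins to be transcribed and makes zygotic RNA, among it short-lived bursts of the Zscan4, Usp17l, Tcstv and Tdpoz gene families. An embryo that has gone further in this change would hold less of the first and more of the second, so the 2 kinds of RNA could vary in opposite directions between embryos.

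The embryos differed in how many genes were detected. A TPM above 0 was listed for 17329 genes in embryo 1, 15445 in embryo 2, 16016 in embryo 3, 14786 in embryo 5, 12722 in embryo 6, 12115 in embryo 7 and 14389 in embryo 8. Embryos 6 and 7 were also the least complete for the genes that were kept, with 990 and 937 of the 9988 listed at 0 against 218 to 427 in the other embryos. Spearman's rho over all genes ranged from 0.74 to 0.85 over the 21 pairs of embryos, with a median of 0.80, so no 2 libraries repeated each other. The markers of the labelled stage were present. Zp3, Gdf9, Bmp15, Nlrp5 and Ooep, which mark the oocyte, and Zscan4c, Zscan4d, Zfp352, Tcstv1 and Usp17lc, which mark the two-cell stage, were above 0 in all 7 embryos.

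The median gene had an SD of 0.94 on the log2(TPM + 1) scale over the 7 embryos (n = 9988 genes), with lower and upper quartiles of 0.59 and 1.68. Spread fell with level, from a median SD of 1.68 among 2382 genes with a mean of 10 to 20 TPM to 0.47 among 240 genes above 500 TPM. Each gene was therefore set against the 200 genes nearest to it in mean log2(TPM + 1), and the difference between its SD and their median SD is called its excess spread. The 999 genes with the highest excess (10% of those kept) are the most variable 10%, and the 999 with the lowest (10%) are the most uniform 10%. Pbk and Fbxw14 lay on either side of the limit of the variable 10%, both with an excess of 0.69, and Sytl4 and Pnpla3 on either side of that of the uniform 10%, both at -0.42.

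**Figure D1:**
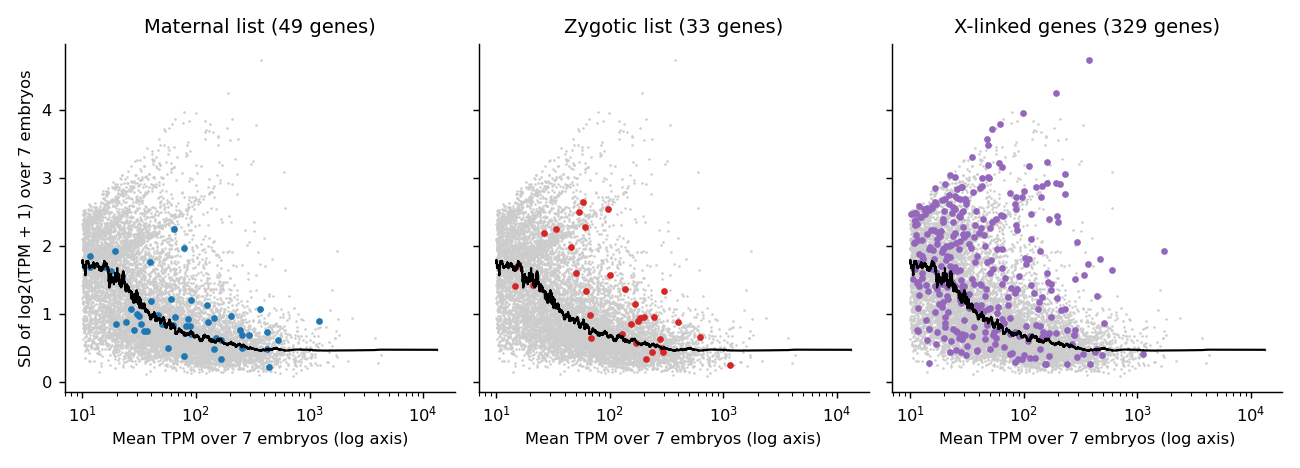
SD of log2(TPM + 1) over the 7 control embryos against mean TPM (log axis), with 1 grey point for each of the 9988 genes, their running median as a black line, and 1 gene set coloured in each panel. The maternal list lies around the running median (median SD 0.85), while many genes of the zygotic list and of the X chromosome lie far above it.

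Spread also followed the length of the RNA. The variable 10% had a median of 1464 exon bases in the RefSeq annotation and the uniform 10% one of 5720 bases, against 3342 for all genes kept. Among the shortest 10% of genes, up to 1051 bases, 35.7% were in the variable and 0.80% in the uniform 10%. Among the longest, from 8542 bases, these shares were 1.202% and 23.05%. Spearman's rho between length and excess across genes was -0.49, as a description, since genes of 1 library are not independent. TPM divides reads by length, so a short gene of a given TPM rests on fewer reads than a long one. The number of reads behind each value cannot be read from TPM. Because of this pattern each gene was also set against the 200 genes nearest to it in both level and length (length-matched excess), a step chosen after the data were seen, and the counts of both measures are given for each gene group. By the length-matched measure the uniform share was higher among short genes, at 16.2% of the shortest and 3.71% of the longest 10%, the reverse of its order without the matching, so a length-matched uniform count of a group of short genes is to be read against that share.

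**Figure D2:**
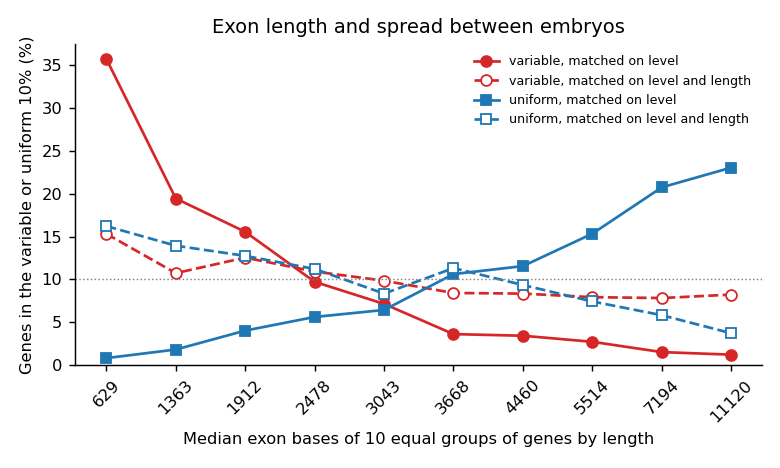
Percent of genes in the most variable (red) and most uniform (blue) 10% for 10 equal groups of genes ordered by exon length, with filled marks for genes matched on level and open marks for genes matched on level and length. The variable share falls from 35.7% to 1.202% and the uniform share rises from 0.80% to 23.05% with length, and with matching on length both shares are higher for the shortest than for the longest genes, the variable share from 15.3% to 8.22% and the uniform share from 16.2% to 3.71%.

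Among the genes with a mean of at least 100 TPM, those with the lowest excess included Trim8, Kansl1, Med13l, Rev3l, Arnt, Zfp142, Fam214a, Dicer1 and Tgoln1, with SDs of 0.14 to 0.23. Kansl1, a scaffold of a histone acetyltransferase complex, was at 106.5, 107, 95.3, 125, 93.0, 110.5 and 101 TPM in embryos 1, 2, 3, 5, 6, 7 and 8. Its highest value was 1.34 times its lowest. Dicer1, the nuclease that cuts small RNA precursors, was at 150.0 to 205 TPM, a ratio of 1.37, and Med13l, a subunit of the Mediator kinase module, at 145 to 189 TPM, a ratio of 1.30. Embryo 1 held the highest Trim8 value, 149 TPM, and the other embryos lay between 113 and 123. Dicer1 and Tgoln1 lay just outside the uniform 10%, and the other genes named here lay inside it.

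Genes for adding and removing methylation of DNA and of histones (at H3K36 and other residues), with their cofactors, had the lowest median SD of the groups with at least 10 kept genes. Of 36 listed genes, 35 passed the limit of 10 TPM, none was in the variable 10% and 2, Kdm5c, an H3K4 demethylase, and Tet2, were in the uniform 10%. Their median SD was 0.44 and the mean level of the group ranged only from 6.79 to 6.99 on the log2(TPM + 1) scale over the embryos. These are long genes, with a median of 6325 exon bases, and the length-matched count was 1 variable and 0 uniform of 35. Tet2, which oxidizes methylated cytosine, was at 5.92 to 29.5 TPM. Ehmt2, an H3K9 methyltransferase, was the least even member, at 1.84 TPM in embryo 6 and 23.2 to 75.7 TPM in the others. H3f3b itself, the gene with the floxed allele, was at 301 TPM in embryo 1, 609 in embryo 2, 968 in embryo 3, 511 in embryo 5, 319 in embryo 6, 385 in embryo 7 and 389 in embryo 8. Its SD was 0.59 and its excess 0.13, so it was neither even nor uneven for its level.

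At the other end, the abundant genes with the highest excess were mostly very short RNAs. Leaving out predicted and Rik gene models, of which 1, the X-linked 1700013H16Rik, lay above all others at an excess of 3.72, the 10 were Mir3069, Snord14a, Mir7673, Mir5134, Npy, Mir6516, Scarna10, Mir1306, Scand1 and Mir343. A microRNA gene in such a table counts reads over a short precursor inside a longer host RNA and does not measure the mature microRNA. Mir3069, of 65 bases, ranged from 0 TPM in embryo 6 to 925 in embryo 2. Of 157 microRNA genes kept, 63 (40.1%) were in the variable 10% and 28 (17.8%) by the length-matched measure, and of 69 small nucleolar RNA genes 35 (50.7%) and 6 (8.70%). Protein-coding examples were Scand1, a short nuclear protein gene, and Npy, a neuropeptide. Scand1 was at 283 to 453 TPM in 6 embryos and listed at 0 in embryo 6. Npy was at 458 TPM in embryo 1, 317 in embryo 6, 108 in embryo 8, 83.2 in embryo 3 and 26.9 in embryo 5, and listed at 0 in embryos 2 and 7.

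Values at or near 0 in a single embryo were frequent. Of the 9988 genes, 1888 (18.9%) were listed at 0 in at least 1 embryo, and 490 were at 0 in embryo 6 alone and 424 in embryo 7 alone, against 23 to 107 in each other embryo. Genes under 1 TPM in 1 embryo and at 10 TPM or more in all 6 others numbered 183 for embryo 6, 125 for embryo 7, 27 for embryo 1 and 2 to 19 for the rest. In embryos 6 and 7 these genes lay almost all on autosomes (182 and 123), and in embryo 1 they did not, as the account of the X chromosome shows. Rps10, Rps21 and Rps25, ribosomal protein genes that every cell uses, were among those listed at 0 in embryo 6, so a 0 in this table is a gene not detected and not an RNA shown to be absent.

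Cytoplasmic ribosomal protein genes and nuclear genes of the respiratory chain are short, and both were often in the variable 10%. Their medians were 795 and 1027 exon bases. Of the shortest 10% of all genes, up to 1051 bases, 35.7% were variable, or 15.3% by the length-matched measure. Of the next 10%, from 1053 to 1642 bases, these shares were 19.4% and 10.7%. Of 79 cytoplasmic ribosomal protein genes 24 were variable (30.4%, against 10% of all genes), and 14 were variable (17.7%) and 10 uniform by the length-matched measure. Rpl36a, which is X-linked, was the extreme, at 0 TPM in embryo 1, 5.93 in embryo 2 and 112 to 348 in the others. Rps15a was the most even of them for its level, at 4.30 to 34.2 TPM. Of 59 nuclear genes of the respiratory chain and ATP synthase 21 were variable (35.6%) and 23 were listed at 0 in at least 1 embryo, and by the length-matched measure 9 were variable (15.3%) and 12 uniform. Without embryo 6 the variable count of the respiratory group was 12. Ndufa2, a subunit of complex I, was listed at 0 in embryo 7 and at 41.6 to 219 TPM in the others, and Ndufs4, another subunit of complex I, ranged from 0 in embryo 7 to 63.8 TPM in embryo 6. The respiratory group as a whole was lowest in embryo 6, at a mean log2(TPM + 1) of 3.39 against 4.62 to 5.33 in the other embryos, and ribosomal protein genes were also lowest there, at 5.21 against 6.16 to 7.29. In neither group did the value of embryo 6 overlap those of the others.

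Replication-dependent histone genes, whose RNAs end without a poly(A) tail, showed the same shift with length. Of 55 kept, with a median of 488 exon bases, 20 were variable (36.4%) and 2 uniform, and by the length-matched measure 12 were variable (21.8%) and 15 uniform. H4c2 was at 163, 11.5, 161, 151, 599, 0 and 1.82 TPM in embryos 1, 2, 3, 5, 6, 7 and 8, while H2ac23 kept between 5.26 and 14.8 TPM. These genes are near-identical in their coding parts, so the split of reads among them is uncertain. Among 40 proteasome genes 6 were variable (15%, against 10% of all genes) and 2 by the length-matched measure (5%). Psmd14, a deubiquitinase of the proteasome lid, was listed at 0 in embryo 6, at 0.37 TPM in embryo 7 and at 39.96 to 107 in the other 5 embryos, whereas Psmd2, a subunit of the same regulatory particle, held between 44.3 and 90.8 TPM.

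Genes for assembling ribosomes in the nucleolus had a variable share that rested on embryo 1. Of 65 kept, 12 were in the variable 10% (18.5%, against 10% of all genes) and 10 by the length-matched measure (15.4%), with a median excess of 0.19 and 0.14. Without embryo 1 the count of 12 fell to 6. Imp3, part of the complex that processes ribosomal RNA, was at 194, 420, 37.4, 158, 0, 239 and 15.8 TPM in embryos 1, 2, 3, 5, 6, 7 and 8, and Bms1, a GTPase of the same process, held between 102 and 173. The level of the whole group was lowest in embryos 1 and 6, at 6.22 and 6.27, and between 7.20 and 7.77 in the other 5 embryos, with no value in between. Embryos 1 and 6 also had the highest summed level of the 5 oocyte markers, at 1093 and 1119 TPM against 437 to 805 in the others.

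The other housekeeping groups had from 1 to 5 members in the variable 10% by either measure, at unlike shares. The variable 10% held 2 of 43 translation factors (4 length-matched), 3 of 54 spliceosome genes (5), 1 of 29 replication genes (1), 1 of 48 mitosis genes (2), 1 of 29 heat shock and chaperone genes (1), 3 of 19 sterol synthesis genes (3) and 4 of 20 glycolysis genes (5). Against 10% of all genes, the shares of the first 5 groups were 2.08% to 5.56% (3.45% to 9.30% length-matched). That of sterol synthesis was 15.8% by both measures, and that of glycolysis was 20% (25% length-matched). Without embryo 6, the level-matched counts of sterol synthesis and glycolysis were 1 each. Eif4g2, an initiation factor, was the translation factor with the lowest excess, -0.33, which lies outside the uniform 10%, at 669 to 850 TPM with an SD of 0.13, while Eif1b, which helps choose the start codon, ranged from 6.77 to 361 TPM. Cdt1, which licenses replication origins, was at 3.46 TPM in embryo 6 and 7.97 in embryo 8, and at 72.4 to 183 in the other 5 embryos. Cdc6, its partner in licensing, ranged from 11.3 to 45.7 TPM. Cks1b, a subunit of cyclin-dependent kinases, was at 5.95 TPM in embryo 7 and 66.3 to 314 in the others, and Wee1, a kinase that restrains mitosis, at 8.80 TPM in embryo 3 and 22.8 to 34.3 in the others.

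Stress and metabolic genes differed gene by gene. Hspa1a, an inducible heat shock protein, ranged from 5.44 TPM in embryo 7 to 146 in embryo 8, while Cct2, a chaperonin subunit, held between 116 and 216. Atf3, a stress-responsive transcription factor, was at 211 TPM in embryo 1 and 172 in embryo 8 and at 6.92 to 54.1 in the others. Of 22 genes of the stress response and p53 targets, 2 were variable (9.09%) and 1 by the length-matched measure (4.55%). Slc7a11, a cystine transporter, was the most even of them for its level, at 4.59 to 22.4 TPM. Slc2a1, a glucose transporter, was listed at 0 in embryos 7 and 8 and at 16.9 to 113 TPM in the others, and Hk1, which starts glycolysis, ranged from 8.59 to 68.2 TPM. Fdps, an enzyme of sterol synthesis, ranged from 1.89 to 148 TPM, and Hsd17b7, of the same route, from 4.82 to 32.8.

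Of 17 imprinted genes kept, 3 were variable and 3 uniform (17.6% each, against 10% of all genes). By the length-matched measure 5 were variable (29.4%) and 2 uniform (11.8%). Mest, which is expressed from the paternal allele, was at 0.20 TPM in embryo 7 and 8.66 to 83.2 in the other 6 embryos, and Snrpn, also paternally expressed, was even at 8.11 to 17.1 TPM. Among 23 transcription factors of the preimplantation embryo, 2 were variable (3 length-matched). Sox2, a pluripotency factor, was listed at 0 in embryo 7 and at 20.8 to 143 TPM in the others, and Nfya, which opens promoters in the two-cell embryo, held between 86.1 and 166 TPM.

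**Figure D3:**
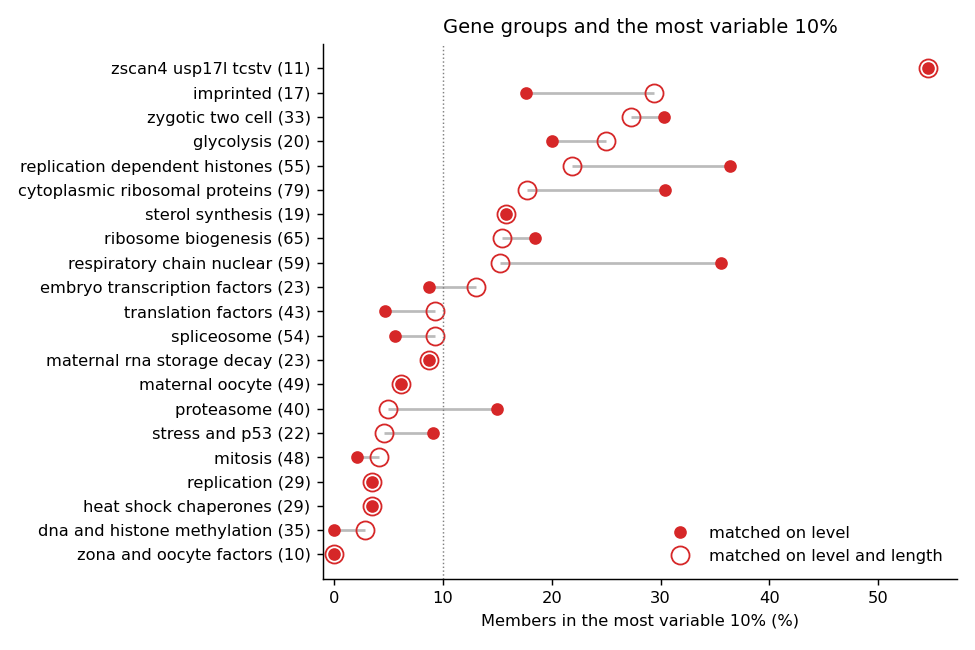
Percent of the members of each gene group that were in the most variable 10%, with the number of members kept in brackets, for groups of at least 10 kept genes. Filled marks are matched on level, open rings on level and exon length, and the dotted line marks the 10% of all genes. Matching on length moves the ribosomal protein, respiratory chain, histone and proteasome groups to the left, and leaves the Zscan4, Usp17l and Tcstv group at 54.5%.

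Genes of the zygotic list were in the variable 10% more often than all genes, by either measure. Of 33 zygotic two-cell genes kept of 38 listed, 10 were in the variable 10% (30.3%) and none in the uniform 10%, with 9 and 2 by the length-matched measure. The 10 were Gm8300, Tdpoz3, Usp17la, Gm2022, Zscan4a, Usp17le, Usp17lc, Zscan4c, Tdpoz2 and Zscan4d. Of the 11 kept genes of the Zscan4, Usp17l and Tcstv clusters, 6 were variable by either measure (54.5%). These 11 are all on the zygotic list and supply 6 of its 10 variable genes, so the 2 results are not separate. Outside these clusters, only Gm8300, Tdpoz3, Gm2022 and Tdpoz2 were variable, and Tdpoz2 was not by the length-matched measure. All 11 cluster genes are multicopy genes, and the split of reads between near-identical copies in the counting by the authors is uncertain. Zscan4d, one of the genes that act on telomeres in early embryos and stem cells, was at 385, 57.9, 118, 37.1, 83.1, 27.9 and 245 TPM in embryos 1, 2, 3, 5, 6, 7 and 8, a ratio of 13.8 between highest and lowest. Zscan4c was at 57.9, 3.19, 16.6, 1.04, 111, 2.60 and 40.7 TPM. Both were high in embryos 1, 3, 6 and 8 and low in embryos 2, 5 and 7. Usp17la, a deubiquitinase gene, was at 1.19 TPM in embryo 5 and 1.17 in embryo 7 and at 41.6 to 91.5 in the others, and Gm8300 ranged from 0.75 TPM in embryo 7 to 266 in embryo 6.

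The evenness differed within families. Usp17lc ranged from 40.6 to 590 TPM, whereas Usp17lb, of the same family, ranged from 305 to 937. Tcstv3 was the most even of the cluster genes, at 86.2 to 229 TPM, and Tcstv1 ranged from 62.2 to 383. Trim43b was at 136 TPM in embryo 1 and 230 to 343 in the others. Khdc1b, the most abundant zygotic gene of the list, was also the most even, at 1336, 1094, 955, 909, 1453, 1181 and 1150 TPM, an SD of 0.24, and Khdc1c held between 166 and 435 TPM. RNA of Khdc1b was already present in control FGOs, at a mean of 1402 TPM, and RNA of Usp17lb was near absent there, at 0.61 TPM. Gm4971 and Zfp352, both near absent in control FGOs, ranged from 138 to 620 and from 70.4 to 438 TPM. Of the oocyte and embryo homeobox family (Obox), 6 genes were kept, none variable by either measure. Obox5 was at 98.1 to 795 TPM and Obox7 at 18.3 to 57.8 TPM.

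The promoters of these genes show how alike the copies are, which is the reason for printing them. Each line gives 90 bases of the RefSeq promoter window in GRCm38.p6, the assembly of mm10, 5′ to 3′ on the strand of the gene, with the letters TATAAA in capitals. The stretches lie at chr7:11005651-11005740 on the plus strand for Zscan4c, chr7:11166164-11166253 on the minus strand for Zscan4d, chr7:11397844-11397933 on the plus strand for Zscan4f, chr7:104842565-104842654 on the minus strand for Usp17lb and chr7:103416568-103416657 on the plus strand for Usp17lc.
Zscan4c: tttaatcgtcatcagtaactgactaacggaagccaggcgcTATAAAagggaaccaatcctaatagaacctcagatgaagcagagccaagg
Zscan4d: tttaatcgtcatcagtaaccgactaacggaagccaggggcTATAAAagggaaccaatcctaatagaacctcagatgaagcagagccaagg
Zscan4f: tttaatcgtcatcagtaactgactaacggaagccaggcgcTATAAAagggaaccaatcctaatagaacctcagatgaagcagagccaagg
Usp17lb: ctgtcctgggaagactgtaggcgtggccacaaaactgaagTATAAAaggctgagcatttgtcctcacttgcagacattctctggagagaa
Usp17lc: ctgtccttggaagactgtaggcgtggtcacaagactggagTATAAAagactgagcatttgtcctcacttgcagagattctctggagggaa

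The stretches of Zscan4c and Zscan4f were identical over all 90 bases, that of Zscan4d matched them at 88, and those of Usp17lb and Usp17lc matched at 83 of 90. TATAAA, searched on both strands, was in 7 of the 17 zygotic-list genes with a window (41.2%), against 8.57% of 7869 kept genes with one and 13.6% of all 32851 windows. The share was 10.1% in the variable and 9.99% in the uniform 10%. The genes printed above are among the 7 and are near copies within each family, so the 7 are not separate cases. A match of these letters is a description of the window. Usp17lb and Usp17lc, both with the letters, differed in spread as given above.

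Several abundant genes outside the list had a pattern over the 7 embryos like that of the Zscan4 genes. The mean log2(TPM + 1) of the 4 Zscan4 genes kept was 6.84, 3.30, 5.51, 2.87, 5.53, 2.34 and 6.32 in embryos 1, 2, 3, 5, 6, 7 and 8. Among 2423 other protein-coding genes with a mean of at least 100 TPM, the largest Pearson r with it was 0.99 for Gbx2, a homeobox gene, followed by 0.96 for Hspa2, a heat shock protein, and 0.94 for Adm, the precursor of a peptide hormone. Gbx2 was at 366, 111, 281, 116, 249, 95.9 and 285 TPM. The most opposite were Parp1, a DNA damage sensor, at r = -0.98, Zfp638 at -0.96 and Tpx2, a spindle assembly factor, at -0.96. Parp1 was at 40.9, 190, 41.8, 235, 62.1, 319 and 47.3 TPM, so its 3 highest embryos were the 3 with the lowest Zscan4 level. These genes were picked from all by their r after the values were seen, over 7 embryos, so the values describe the embryos and carry no test.

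The maternal list was frequent in neither the variable nor the uniform 10%. Of 52 listed oocyte-made genes 49 were kept, of which 3 were variable (6.12%, against 10% of all genes) and 1 uniform (2.04%, against 10%), with 3 and 2 by the length-matched measure, a median SD of 0.85 and a median excess of 0.08. All kept members but 2 were higher in control FGOs than in the embryos. The exceptions were Sohlh1, at a mean of 0.82 TPM in FGOs and 11.6 in the embryos, and Omt2a, at 193 and 525 TPM. The 3 were Khdc3, a member of the subcortical maternal complex, Zar1l, a regulator of stored mRNA, and Dazl, an RNA-binding protein of germ cells. Without embryo 7 the count was 1. Khdc3 was at 0.33 TPM in embryo 7 and 37.5 to 143 in the other 6 embryos, and Zar1l was at 3.87 TPM in embryo 6, 8.58 in embryo 8 and 74.5 to 164 in the other 5. Npm2, a histone chaperone of the egg, was very even at 492, 469, 440, 447, 403, 500 and 321 TPM in embryos 1, 2, 3, 5, 6, 7 and 8, an SD of 0.22. Btg4, an adaptor that drives the decay of maternal mRNA, was the most abundant listed maternal RNA at 515 to 2409 TPM, with embryos 1, 5 and 6 at 2026, 1373 and 2409 TPM and the other 4 at 515 to 885. Oosp1, a secreted oocyte protein, ranged from 77.4 to 683 TPM, Wee2, a kinase that holds the oocyte in meiosis, from 225 to 878, Ybx2, an mRNA-storing protein, from 278 to 669, and Omt2a from 226 to 760. Astl, the protease that hardens the zona pellucida, was the listed maternal RNA with the lowest excess, at 6.11 to 38.1 TPM.

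The smaller maternal groups had 0 to 2 variable members each, and the counts below were the same by the length-matched measure. Of 7 subcortical maternal complex genes 1 was variable (14.3%), and Nlrp2 had the lowest excess, at 8.97 to 54.1 TPM. Of 10 zona and oocyte factor genes none was variable, and of 23 genes for storage and decay of maternal mRNA 2 were (8.70%). Tut7, which adds uridines to RNA ends, was the lowest in excess of the last group at 63.8 to 127 TPM. Among the oocyte markers, Nlrp5 ranged from 126 to 242 TPM, Gdf9 from 110.1 to 419, Bmp15 from 124 to 447, Zp3 from 19.3 to 121 and Ooep from 19.995 to 87.9.

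Genes were also classed by their level in oocytes, in place of the lists. The 855 genes below 1 TPM in each of the 3 control FGO libraries form the zygotic class, and the 661 genes with a mean of at least 10 TPM in FGOs and at least 4 times the embryo mean form the maternal class. Of the zygotic class 15.6% were in the variable and 7.95% in the uniform 10%, and of the maternal class 7.26% and 15.7%. By the length-matched measure these shares were 15.3% and 10.2% for the zygotic class and 5.30% and 18% for the maternal class. The zygotic class thus had the higher variable share, as the zygotic list had, while the high uniform share of the maternal class was not seen in the maternal list. Without the X-linked genes, 13.7% of the zygotic class was variable.

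Maternal and zygotic RNA were not seen to vary in opposite directions over the 7 embryos. The level of the maternal list, as the mean log2(TPM + 1) of its kept genes, was 6.85 in embryo 1, 6.02 in embryo 2, 6.27 in embryo 3, 6.02 in embryo 5, 6.22 in embryo 6, 5.47 in embryo 7 and 5.88 in embryo 8 (mean 6.11 ± 0.42 SD, n = 7). That of the zygotic list was 7.14, 5.75, 7.03, 5.35, 6.41, 5.68 and 7.22 in the same order (mean 6.37 ± 0.78 SD). Embryo 1 was high in both, embryo 7 low in both, and embryo 8 highest in zygotic and second lowest in maternal RNA. Pearson's r between the lists was 0.55 and Spearman's rho 0.39, neither past the threshold by an exact two-sided permutation test over the embryos (p = 0.21 and 0.40, adjusted p = 0.28 and 0.42 over 16 values of 8 relations). Without embryos 1 and 7, which lay farthest from the median maternal level, r was 0.13, so the positive value rests on these embryos. With replicate 4 added r was -0.27.

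**Figure D4:**
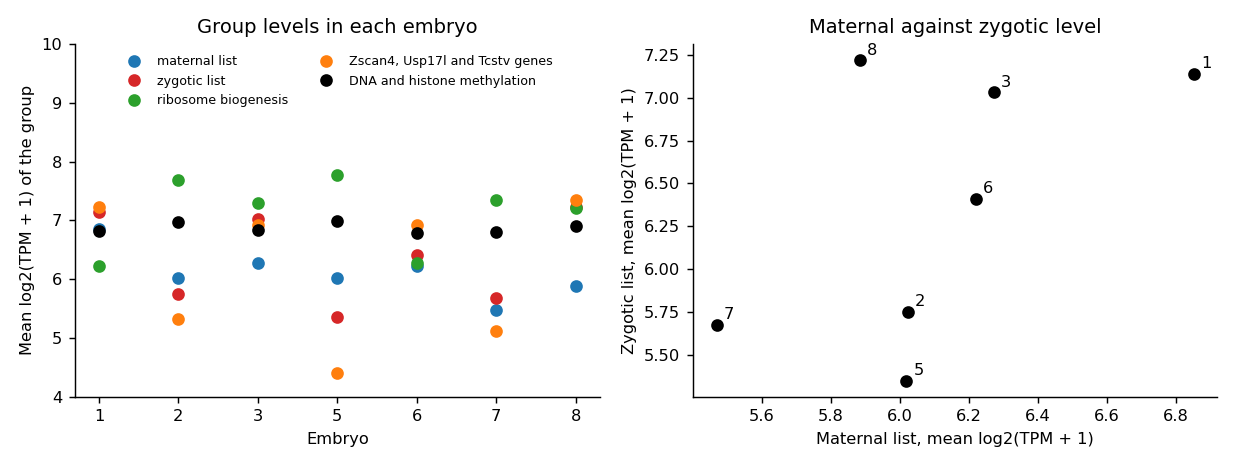
Left, the mean log2(TPM + 1) of 5 gene groups in each of the 7 control embryos, and right, the zygotic list against the maternal list with embryos numbered. The DNA and histone methylation group stays between 6.79 and 6.99 while the Zscan4, Usp17l and Tcstv group spans 4.40 to 7.35, and in the right panel embryo 1 is high and embryo 7 low on both axes.

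The classes gave a like picture. The maternal class was at 5.06, 4.56, 4.51, 4.43, 4.26, 3.75 and 4.26 and the zygotic class at 4.26, 3.61, 4.14, 3.47, 3.16, 3.39 and 4.10 in embryos 1, 2, 3, 5, 6, 7 and 8, with r = 0.60 (exact permutation p = 0.16, adjusted p = 0.25) and rho = 0.64 (exact permutation p = 0.14, adjusted p = 0.25). Without embryos 1 and 7 r was 0.19. The sign turned to -0.09 under quantile normalization and to -0.20 among genes with a mean of at least 50 TPM. The number of genes above 0 had r = 0.93 with the maternal class (exact permutation p = 0.0016, adjusted p = 0.025) and r = 0.79 with the zygotic class (exact permutation p = 0.041, adjusted p = 0.11). The rank correlation of the maternal class with gene number was 0.93 (exact permutation p = 0.0067, adjusted p = 0.054). Without embryos 1 and 7 the r of gene number with the maternal class was 0.84 and with the zygotic class 0.68. The level of a class includes its genes listed at 0, which also lower the number of genes above 0. Of the maternal class 182 of 661 genes and of the zygotic class 417 of 855 were at 0 in at least 1 embryo. A positive r with gene number is therefore partly built in, and its p does not show a separate relation. For the lists, r with the number of genes above 0 was 0.78 (maternal, exact permutation p = 0.037, adjusted p = 0.11) and 0.44 (zygotic, exact permutation p = 0.31, adjusted p = 0.35), and both fell to -0.01 without embryos 1 and 7. The part of detection in the relation of maternal and zygotic levels was not tested.

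Ribosome biogenesis ran opposite in sign to both lists, a pair of relations chosen after the values were seen. Ribosomal protein, proteasome and DNA and histone methylation genes also had a negative r with both lists, and those relations were not tested. For ribosome biogenesis r was -0.63 with the maternal list (exact permutation p = 0.13, adjusted p = 0.25) and -0.58 with the zygotic list (exact permutation p = 0.20, adjusted p = 0.28), and its rho with the zygotic list was -0.79 (exact permutation p = 0.048, adjusted p = 0.11). None passed after adjustment.

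The X chromosome stood apart from every autosome. Of 329 X-linked genes kept, 102 were in the variable 10% (31.0%, against 10% of all genes), and 112 by the length-matched measure (34.0%), while the share on the 19 autosomes was 5.59% to 13.02% and 6.53% to 11.4%. The median SD of X-linked genes was 1.65, and that of single autosomes was 0.82 to 1.09. Without embryo 1 the X-linked share was 17.7%. This comparison was chosen after the values were seen.

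Embryo 1 held little RNA of X-linked genes, most of all of those that are low in oocytes. Of the 27 genes under 1 TPM in embryo 1 and at 10 TPM or more in all 6 others, 21 were X-linked (77.8%), although X-linked genes were 3.29% of those kept. In embryos 6 and 7 the genes so chosen were X-linked in 1 of 183 and 2 of 125 genes. Among the 10 abundant X-linked protein-coding genes of highest length-matched excess, Gpr50, a receptor at chrX:71663667-71669257, was at 0.16 TPM in embryo 1 and at 163, 480, 146, 54.6, 107 and 388 TPM in embryos 2, 3, 5, 6, 7 and 8. Syap1, at chrX:162856843-162888462, was at 0.22 TPM in embryo 1 and 136 to 505 in the others. Sat1, which acetylates polyamines, at chrX:155213126-155216449, was at 0.78 TPM in embryo 1 and 100.4 to 422 in the others. Pbdc1 was at 0.29 TPM against 53.2 to 305, Fmr1nb at 0 against 41.5 to 337, and Pwwp3b at 0 against 11 to 185. Upf3b, a factor of nonsense-mediated decay, was at 1.495 TPM in embryo 1 against 114 to 340, and Utp14a, a ribosome assembly protein, at 1.85 against 91.3 to 406. In all of these embryo 1 lay below every other embryo. 1700013H16Rik had the largest SD of any gene kept, 4.73, at 0 TPM in embryos 1 and 2, 0.56 in embryo 6, 34.2 in embryo 5, 455 in embryo 8, 869 in embryo 3 and 1254 in embryo 7. Positions are those of RefSeq GRCm38.p6, the assembly of mm10.

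The deficit was graded by how much of the RNA the oocyte holds. X-linked genes under 1 TPM in control FGOs (62 genes) were compared with autosomal genes of the same class (1006), and in embryo 1 their mean log2(TPM + 1) differed by -3.95. The difference in embryo 1 was -3.01 for genes at 1 to 10 TPM in FGOs, -2.05 at 10 to 50 TPM and -1.41 at 50 TPM or more. In the other 6 embryos it lay between -1.13 and 0.80 in the first class and between -0.40 and 0.50 in the last. The low level ran along the chromosome. In segments of 20 Mb, X-linked genes under 10 TPM in FGOs (119 genes, 3 to 28 a segment) were lowest in embryo 1 in 8 of 9 segments, at means of 0.45 to 2.42. The segment in which embryo 1 was not lowest was the last, with 3 genes. On no autosome did the same kind of genes stray as far in any embryo: with each gene centred on its median over the embryos, they lay, relative to the other autosomes, between -0.48 (chromosome 19, embryo 6) and 0.54 (chromosome 16, embryo 7), whereas X-linked genes, centred in the same way, ranged from -2.91 in embryo 1 to 1.52 in embryo 8.

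The other 6 embryos fell into a higher and a lower X-linked level. Over genes under 10 TPM in FGOs (119 X-linked and 2634 autosomal), and without that centring, the X-linked less autosomal difference was -3.51 in embryo 1, -0.85 in embryo 2, 0.68 in embryo 3, -0.91 in embryo 5, -0.77 in embryo 6, 0.72 in embryo 7 and 0.92 in embryo 8. The summed TPM of 8 Y-linked genes (Eif2s3y, Ddx3y, Kdm5d, Uty, Usp9y, Zfy1, Zfy2 and Sry) was 145, 65.5, 0, 53.6, 154, 0 and 0 in the same order. Over all 91 Y-linked genes of the table, 49 were above 0 in embryo 1 and 11, 3, 8, 6, 0 and 1 in the others, so embryo 1 also stood apart in how many were detected. The embryos with a positive X-linked difference were thus the 3 in which all 8 Y-linked genes were listed at 0. Eif2s3y, which encodes a translation initiation subunit, was at 21.05, 19.8, 13.8 and 49.5 TPM in embryos 1, 2, 5 and 6, and Zfy1, a zinc finger gene, at 22.7, 5.06, 0.19 and 63.6. Xist, the RNA that silences one X in females, was at 0.03, 0.14, 1.88, 0.20, 0.38, 7.07 and 5.97 TPM, and its antisense Tsix at 0, 0.58, 10.7, 0, 0.32, 16.7 and 5.83 TPM. The strand setting of the counting is not given in the sources used here, so reads of these overlapping genes cannot be told apart. The labels give no sex, and no embryo was assigned to a group by these values.

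**Figure D5:**
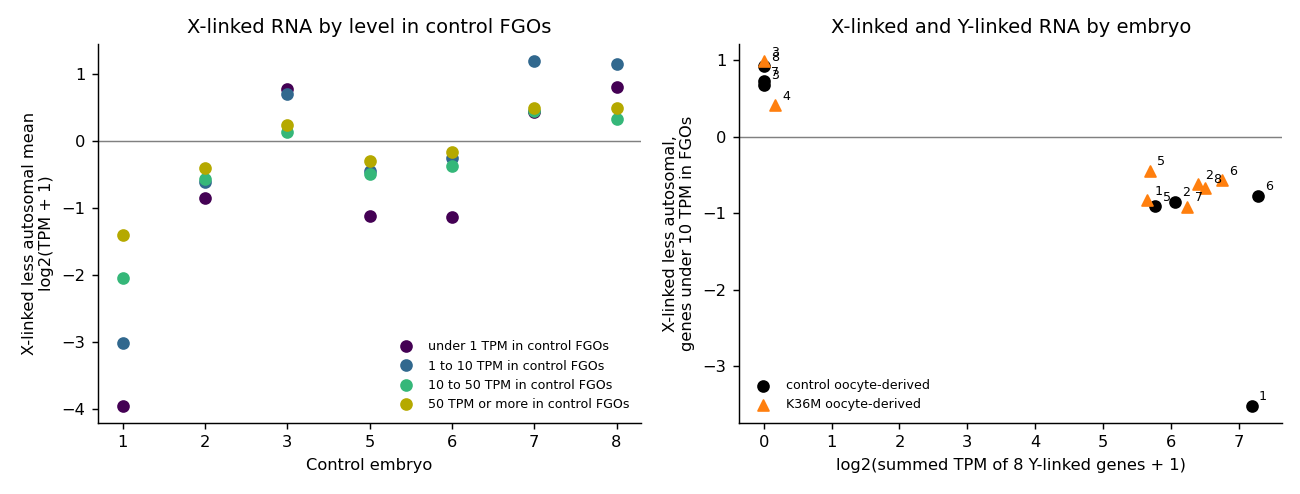
Left, the mean log2(TPM + 1) of X-linked less autosomal genes in each control embryo, by the mean TPM of the genes in control FGOs, and right, the difference for genes under 10 TPM in FGOs against log2 of the summed TPM of 8 Y-linked genes plus 1, with embryos numbered (circles, 7 control; triangles, 8 K36M oocyte-derived). Embryo 1 lies lowest in every class, from -3.95 to -1.41, and the embryos with no or almost no Y-linked RNA lie above 0.

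The 8 K36M oocyte-derived embryos, which the choice of genes did not use, showed the same pairing of X-linked and Y-linked levels. K36M embryos 3 and 4, with 0 and 0.13 TPM over the 8 Y-linked genes, had X-linked differences of 0.99 and 0.41, and the other 6, with 49.2 to 107 TPM, had differences of -0.92 to -0.45. None was as low as control embryo 1. In their own fit 12.5% of 296 X-linked genes were in the variable 10% (14.9% length-matched), against 10% of all and 7.79% to 13.8% (6.72% to 15.5%) on single autosomes, so the X chromosome did not stand apart there and chromosome 12 was above it by both measures. The zygotic list had 12 of 32 kept genes (37.5%) in the variable 10% there and 31.25% length-matched, and the maternal list 4 of 46 (8.70%) and 13.04%. Of the classes, 492 of 855 zygotic and 550 of 661 maternal genes were also kept in these embryos. Their shares were 20.7% and 20.2% (zygotic) and 12.5% and 9.45% (maternal), against 10.5% and 10.4% of all genes kept in both sets. Ribosome biogenesis had 4 of 65 (6.15%) and 4.62% length-matched, and the Zscan4, Usp17l and Tcstv clusters 4 of 11 (36.4%) and 3 of 11 length-matched (27.3%). Of 8506 genes kept in both sets of embryos, 8498 had an exon length. Of these 8498, 10.3% were in the length-matched variable 10% of the control set and 10.4% in that of the other. In both were 223, which is 25.4% of the 879 of the control set and 25.3% of the 883 of the other.

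Markers of other cells were not absent. Of 9 cumulus and granulosa markers 1 was above 0 in all 7 embryos, and their summed TPM was 110, 10.2, 8.88, 16.1, 116, 1.99 and 31.6 in embryos 1, 2, 3, 5, 6, 7 and 8. It was thus highest in embryos 1 and 6, the embryos in which oocyte markers were highest and ribosome biogenesis genes lowest, and its part in those values was not tested. Inhbb carried most of the sum in embryo 1, and Foxl2 and Amh in embryo 6. Amhr2, the receptor of the hormone that Amh encodes, is not among the 9, and it went the other way, at 14.4 and 12.9 TPM in embryos 1 and 6 and 34.4 to 91.5 in the others. The defining follicle markers were not all near 0: Inhbb reached 82.6 TPM in embryo 1, Foxl2 72.5 and Amh 26.3 in embryo 6, while Fshr was listed at 0 in 6 embryos and Cyp19a1 stayed at or below 1.81 TPM. Of the list of 20 such genes 5 were kept and none was in the variable 10% by either measure, with Fst at 0 to 67.2 TPM. Their median SD was nevertheless 2.17, against 0.94 for all genes kept. A gene that is low in most embryos reaches a mean of 10 TPM only through its high embryos. It is then set against genes kept in the same way, so a low excess does not make it an even gene. Sperm markers summed to 0 to 55.2 TPM over 6 genes. The sum was all Tnp1 in embryos 1, 3, 5 and 8, and mostly Prm2, at 31.2 of 33.0 TPM, in embryo 2, where Tnp1 was at 0. Smcp was at 0 in all embryos, and Prm1, Prm2 and Tnp2 were above 0 in 1 embryo each. Of 12 listed sperm genes 3 were kept and none was variable by either measure, among them Ldhc at 3.30 to 37.0 TPM. Blood and stroma markers summed to 1.13 to 13.5 TPM over 6 genes, with Hbb-bs and Ptprc at 0 in all embryos. Of 10 listed genes only Pecam1 was kept, at 18.5 to 54.0 TPM, and it was variable by neither measure. Of the 10 genes on the list of Y-linked genes and Xist, 2 were kept, Eif2s3y and Zfy1, with none variable by level and 1, Eif2s3y, by the length-matched measure. The kept sperm and Y-linked genes had median SDs of 2.21 and 2.52, and the limit given for the follicle genes applies to them too.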

How the data were processed

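RNA of single two-cell embryos and of pools of FGOs had been sequenced from SMART-Seq stranded libraries. The authors trimmed adaptor bases, aligned to mm10 (Hisat2), discarded reads on ribosomal RNA, assigned the rest to genes (featureCounts) and deposited TPM. Every TPM column adds up to 1000000. The annotation, lengths and strand setting are not given in the sources used here. TPM keeps no depth, so no interval that needs reads was given.

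From these values, log2(TPM + 1) was taken and the SD over the 7 embryos was compared with the median SD of the 200 genes nearest in mean. Exon lengths and positions came from RefSeq GRCm38.p6, which held 26130 of the 26214 symbols. Correlations over embryos were tested by exact two-sided permutation (5040 orders) with Benjamini-Hochberg adjustment over 16 values, at a threshold of 0.05. Spread scripts were tested on simulated data. No test compares groups of embryos, since no label divides them, and single embryos were set against the others only by Dixon's test. Python 3.11.15, numpy 2.4.6, pandas 2.3.3 and scipy 1.17.1 were used.

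The genes and lists were chosen with earlier results of these data known. Named were the member of highest and lowest excess of each list, the 10 highest and 10 lowest in excess with a mean of at least 100 TPM (without gene models), the 6 most abundant maternal and zygotic genes, cell type markers and H3f3b. Others were chosen after their values were seen. An item that this rule would name is not reported here. No gene of the list of 26 mitochondrially encoded genes was found in the table under the symbols used.

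The alternatives were a pseudocount of 0.1, median-of-ratios scaling, quantile normalization, limits of 5 and 50 TPM, genes above 0 in all embryos, leaving out each embryo, adding replicate 4, MAD or CV in place of SD, a window of 1000 genes, summed TPM and leaving out genes under 300 exon bases. Length matching, the X-linked results and leaving out embryos 6 and 7 together were added after the data were seen.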

Additional observations from a re-analysis of the deposited data

Results flagged for a closer look

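The lowest or highest of the 7 embryos lay far from the rest, by Dixon's test at its 95% limit, in 2 of 20 measures of the embryos and in 19 of 101 named genes. Chance would pass about 1 in 20, and genes named for a high or low spread are more likely to pass. The 2 measures were the respiratory chain level in embryo 6 (3.39) and the X-linked less autosomal difference in embryo 1 (-3.51). The X-linked difference and the X-linked genes given below were chosen after their values were seen. Their passing restates that choice and is no test of it.

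In embryo 1 the X-linked genes Fmr1nb (0 TPM), Gpr50 (0.16 TPM), Pbdc1 (0.29 TPM), Sat1 (0.78 TPM), Syap1 (0.22 TPM), Upf3b (1.495 TPM) and Utp14a (1.85 TPM) were far below the other embryos, as was Trim43b (136 TPM), and Trim8 (149 TPM) was above them. In embryo 6 Scand1, Scarna10 and Sf3b5, a small splicing factor subunit, stood at 0 TPM and Ehmt2 at 1.84 TPM. In embryo 7 Ndufa2 and Sox2 stood at 0 TPM, Khdc3 at 0.33 TPM and Cks1b at 5.95 TPM. Arnt was low in embryo 5 (85.9 TPM) and Wee1 in embryo 3 (8.80 TPM).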

How the results depend on the processing

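No paired analysis was possible because the 7 embryos are 1 group and nothing was contrasted between groups. TPM keeps no depth, and each embryo is 1 library, so error of the library and difference of the embryo cannot be told apart. Maternal against zygotic r was 0.55 for the lists, and turned to -0.27 (exact permutation p = 0.53) when replicate 4 was added. It ran from 0.37 to 0.81 when each embryo was left out, the highest without embryo 8 (exact permutation p = 0.026). For the classes it ran from 0.20 without embryo 1 to 0.74 without embryo 8, and was -0.094 under quantile normalization (exact permutation p = 0.84) and -0.20 at 50 TPM (exact permutation p = 0.68). The cause of these turns was not tested.

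The 9988 genes became 9718 to 10067 without 1 embryo and 4538 at 50 TPM. The median SD of 0.94 was 0.81 (without embryo 6) to 0.98 without 1 embryo, 1.14 at 5 TPM, 0.64 at 50 TPM, 0.78 among genes above 0 in all embryos and 1.14 with replicate 4 added. Of the 999 variable genes, 663 (without embryo 6) to 881 remained without 1 embryo. 344 remained at 50 TPM, 477 among genes above 0 in all embryos, 410 by MAD, 445 by CV, 662 length-matched and 484 without embryos 6 and 7. Of the 999 uniform genes, 637 (without embryo 7) to 812 remained without 1 embryo, and 650 without embryo 6. 37 remained at 50 TPM, 350 by MAD, 580 by CV, 534 length-matched and 409 without embryos 6 and 7. Fewer genes are kept at 50 TPM and among genes above 0 in all embryos.

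The X-linked variable share of 31.0% ran from 17.7% (without embryo 1) to 35.9% (without embryo 6) when 1 embryo was left out, and was 23.1% by MAD, 38.4% without embryos 6 and 7 and 45.2% at 50 TPM. The X-linked difference of embryo 1, -3.51, was -3.56 to -3.41 without another embryo, -5.39 with a pseudocount of 0.1, -5.16 at 50 TPM, -2.98 at 5 TPM and -2.91 among genes above 0 in all embryos. Of 1309 SDs of named genes under the alternatives 99 moved by more than their jackknife error, and of 1080 counts of variable or uniform list members 281 moved by over 1.5 times, 89 of 378 when 1 embryo was left out. Most lists hold few such members, so that 1 gene can move the count. Of the lists with at least 10 variable members, leaving out 1 embryo gave 7 to 11 for the zygotic list (10 with all embryos), 16 to 26 for ribosomal proteins (24), 6 to 13 for ribosome biogenesis (12), 12 to 20 for the respiratory chain (21) and 19 to 23 for histones (20).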
